A study of Mus musculus with 10 samples.

Results

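The uterus of 5 wild-type (WT) mice, of 10 mice in the series, was described alone, as the baseline against which any change in this organ would be seen. Genes were chosen by 2 measured values. Protein-coding genes with a mean above 1 FPKM (fragments scaled by transcript length and by library depth) over the 5 mice were called baseline genes, and 12317 of 17697 protein-coding genes in a table of 29268 genes passed. The 500 baseline genes with the highest variance of log2(FPKM + 1) over the same 5 mice were called the most variable genes. Because the same values chose these genes and describe them, no test was made and every value below is a description.

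All 5 WT mice were females aged 4 months, of the FVB/N background used in the study, with no transgene and no treatment. Each library was made from uterus, so the RNA of the epithelium, stroma, muscle wall, vessels and immune cells was mixed. The methods do not say whether the whole organ or a piece of it was taken for RNA. In the methods, WT uteri taken for histology are said to come from random phases of the estrous cycle. For the mice sequenced here the sources used give no stage, so none was assigned. WT1 to WT5 are names that follow the animal numbers of the labels, and each animal number was read as 1 mouse. In a bulk library, fewer cells of a type and less RNA per cell cannot be told apart. Gene-assigned counts ranged from 14817228 in WT3 to 23271988 in WT1, with a median of 19210537, and 3 counts corresponded to between 0.129 and 0.202 CPM (counts scaled to the library total). Mitochondrially encoded genes took between 2.58% and 3.37% of the counts, and between 12015 and 12124 protein-coding genes were above 1 FPKM in a mouse.

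The mouse uterus is rebuilt in every estrous cycle. Estrogen, acting mainly through ESR1, drives the luminal epithelium to divide and to secrete proteins such as lactoferrin and complement C3, and progesterone, acting through PGR, shifts division to the stroma and switches on another set of epithelial and glandular genes. The endometrium is surrounded by the myometrium, a wall of smooth muscle, and its immune cells come and go with the cycle.

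The baseline was led by genes of the mitochondrial genome and of protein synthesis. Of the 10 genes with the highest mean FPKM, 6 were encoded by the mitochondrial genome. The cytochrome oxidase subunit mt-Co1 had 5694 ± 725 FPKM (mean ± SD, n = 5, here and below), and cytochrome b, mt-Cytb, had 5121 ± 678 FPKM. The NADH dehydrogenase subunit mt-Nd1 followed at 4681 ± 552 FPKM. The ribosomal stalk protein Rplp1 and the elongation factor Eef1a1 stood beside them, at 3947 ± 732 FPKM and 3621 ± 768 FPKM. Subunits mt-Nd4, mt-Nd2 and mt-Nd6 had means of 2179.6, 2147 and 1807 FPKM. Tmsb4x, which encodes the actin-binding thymosin beta 4, had 1661 ± 585 FPKM, and Rps3a1, a protein of the small ribosomal subunit, had 1643 ± 238 FPKM. The SD of log2(FPKM + 1) of these 10 genes between mice lay between 0.17 for mt-Nd1 and 0.47 for Tmsb4x. The median over all baseline genes was 0.25, so their spread was not unusual.

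Most baseline genes were expressed at a low level. Between 1 and 10 FPKM lay 7437 genes, 60.4% of the baseline, and 4531 lay between 10 and 100 FPKM. A further 329 genes lay between 100 and 1000 FPKM, and 20 lay above 1000 FPKM. Those 20 genes held a mean of 16.3% of the summed FPKM of the baseline genes. The median baseline gene had a mean of 7.48 FPKM. In every one of the 5 mice, 10965 baseline genes were above 1 FPKM, whereas 262 were above it in at most 2 mice and entered the baseline through those mice. The gene just inside the limit was Haus5, with a mean of 1.0006 FPKM, and the gene just outside was Kif14, with 0.99984 FPKM. No count was seen in any WT mouse for 265 protein-coding genes of the table.

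Markers of the parts of the uterus were present. All 20 smooth muscle markers, all 20 endometrial stroma markers and 22 of 24 epithelial markers were baseline genes, and so were 17 of 18 endothelial markers. Acta2, the smooth muscle actin, had a mean of 911 FPKM and the epithelial adhesion molecule Epcam had 129 FPKM. Pdgfra, a receptor of stromal fibroblasts, had 42.9 FPKM, the endothelial Pecam1 had 18.9 FPKM and the pan-leucocyte Ptprc had 1.98 FPKM. Markers of neighboring organs were mostly low: 3 of the 12 listed ovary genes found in the table and 6 of the 22 found for the oviduct and ciliated cells were baseline genes. Among listed genes below the baseline, the steroidogenic enzymes Cyp11a1 and Cyp17a1, which mark ovarian steroid cells, had means of 0.0434 and 0.101 FPKM. Foxj1, which marks ciliated cells, had 0.494 FPKM. Those in the baseline included Star and Inha of the ovary list, with means of 3.84 and 6.27 FPKM. They also included Ovgp1 and Rsph1 of the oviduct list, with 1.55 and 2.16 FPKM.

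The 5 uteri were not equally far from each other. The root mean square difference of log2(FPKM + 1) over the 12317 genes was 0.91 between WT3 and WT4, the farthest pair, and 0.51 between WT1 and WT2, the closest (WT2 and WT3 were the closest among genes over 5 FPKM). Over 1 log2 unit apart were 1899 genes between WT3 and WT4, or 15.4% of the baseline, and 671 genes, 5.45%, between WT1 and WT2. WT4 was the farthest from the others on average, at 0.72, followed by WT3 at 0.68, WT5 at 0.63, and WT2 and WT1 at 0.58. The first principal component held 54.7% of the variance and ran from WT3 to WT4, with scores of -0.40 and 0.49 and the other mice between them. The second held 22.2% and set WT5, with a score of 0.36, apart from the other mice, whose scores lay between -0.18 and 0.03. WT3 had the fewest counts and WT1 the most, and WT3 and WT4, at opposite ends of the first component, had similar mitochondrial shares, 3.35% and 3.37%.

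Spread was concentrated in a minority of genes. The SD of log2(FPKM + 1) had a median of 0.25 over all baseline genes, a 90th percentile of 0.70 and a 99th percentile of 1.56. An SD over 1 was found for 525 baseline genes, which is 4.26% of the 12317. The 500 most variable genes, 4.06% of the baseline, had SDs between 1.02 and 4.42 and carried 41.3% of the summed variance. The last gene of the 500 was Foxs1, with an SD of 1.0206, and the first gene left out was Ly6g, with 1.0196. Variable genes were found at every level. They made up 3.44% of the genes between 1 and 10 FPKM, 4.61% between 10 and 100 FPKM, 10.03% between 100 and 1000 FPKM and 2 of the 20 genes above 1000 FPKM.

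**Figure D1:**
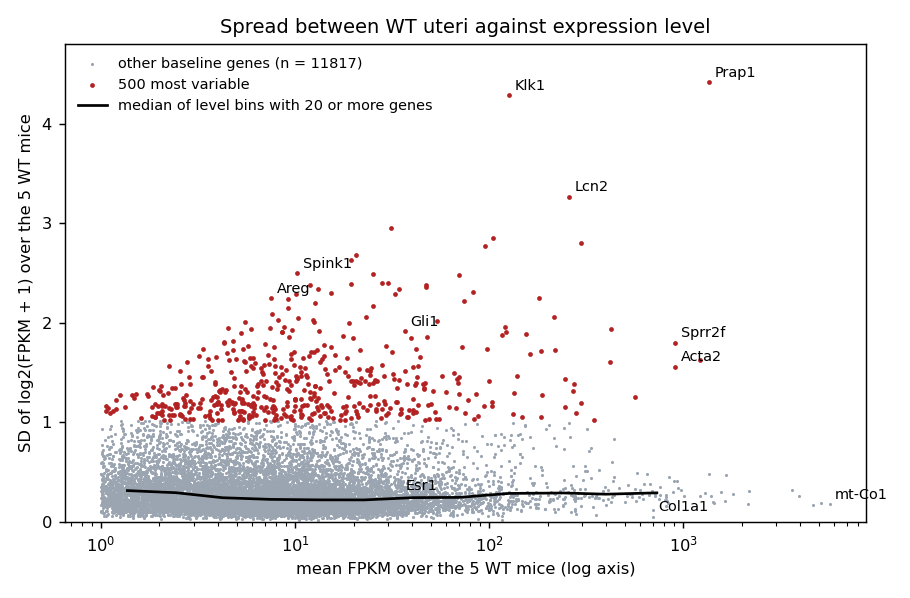
Each point is 1 of the 12317 baseline genes, with the mean FPKM over the 5 WT mice on a log axis against the SD of log2(FPKM + 1) over the same mice; the 500 most variable genes are red and the black line is the median in level bins. The median SD lies between 0.23 and 0.29 in the 4 level ranges, and Prap1 (4.42), Klk1 (4.29) and Lcn2 (3.27) stand highest.

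The next values follow in part from the choice of the 500 genes for their high variance and are descriptions only. The variance expected from counting alone was a median of 0.197% of the observed variance for the 500 genes and at most 18.4%, beside a median of 4.02% for the other baseline genes. The biological coefficient of variation that edgeR estimated from the counts had a median of 0.78 for the 500 genes with an estimate and 0.27 for all baseline genes with one. For 432 of the 500 genes the lowest mouse was above 3 counts, and among these the highest mouse was a median of 15.7-fold above the lowest in FPKM, with a range from 4.63-fold to 3198-fold. The 3198-fold value was that of Klk1 and is uncertain, since its lowest mouse, WT1, had 4 counts. For the other 68 genes the lowest mouse had 3 counts or fewer, and it had 0 counts for 34 of them. The 500 genes were shorter than the rest, with a median length of 2923.5 bases in the table beside 4409, and 16 of them (3.2%) had a transcription factor family in the table, beside 7.29% of the other baseline genes.

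The gene with the highest variance was Prap1, which encodes a secreted proline-rich acidic protein of the uterine and intestinal epithelium. In WT1 to WT5, the order in which 5 values are given throughout, it had 7.35, 23.26, 8.001, 1793 and 4952 FPKM. WT4 and WT5 were high and the other mice were low, with no intermediate value, and the highest mouse was 674-fold above the lowest. Klk1, the tissue kallikrein, a secreted serine protease, was next and split the mice the same way, with 0.151, 0.489, 0.173, 150.2 and 483 FPKM. Next came Lcn2, the siderophore-binding lipocalin 2, with 287, 23.1, 2.53, 959.9 and 16.1 FPKM. For Lcn2 the high mice were WT1 and WT4, so WT5 was high for Prap1 and Klk1 and low for Lcn2. Kap, the kidney androgen-regulated protein, was high in WT4 alone, with 0.518, 0.223, 0.351, 152 and 2.83 FPKM.

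Upstream sequences of these 4 genes, the 4 most variable, are shown because their levels had the highest variance and because sequences read by the estrogen receptor are a usual first question for such genes. Each is the 200 bases before the first transcribed base in RefSeq (GRCm38.p6), read 5′ to 3′ on the strand of the gene. Capitals mark AGGTCA, a single arm of the palindromic estrogen response element and not the full element. They also mark the TATA box, spelled TATAAA. Both were searched on both strands, so an arm can read as its reverse complement, and no matches overlap here. The windows are chr7:140093196-140093395 on the plus strand for Prap1, chr7:44225160-44225359 on the plus strand for Klk1, chr2:32387740-32387939 on the minus strand for Lcn2 and chr6:133853668-133853867 on the minus strand for Kap.
Prap1: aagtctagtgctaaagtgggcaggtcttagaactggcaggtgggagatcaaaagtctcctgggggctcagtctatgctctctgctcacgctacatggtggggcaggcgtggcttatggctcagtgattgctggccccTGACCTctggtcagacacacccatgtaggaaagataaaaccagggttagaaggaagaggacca
Klk1: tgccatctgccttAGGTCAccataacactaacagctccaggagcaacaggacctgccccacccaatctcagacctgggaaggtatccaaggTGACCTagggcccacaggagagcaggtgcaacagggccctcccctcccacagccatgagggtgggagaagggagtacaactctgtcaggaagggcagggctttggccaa
Lcn2: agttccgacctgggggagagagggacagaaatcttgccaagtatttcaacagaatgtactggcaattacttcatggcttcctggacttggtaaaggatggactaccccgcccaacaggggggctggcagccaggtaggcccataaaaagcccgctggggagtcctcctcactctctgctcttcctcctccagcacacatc
Kap: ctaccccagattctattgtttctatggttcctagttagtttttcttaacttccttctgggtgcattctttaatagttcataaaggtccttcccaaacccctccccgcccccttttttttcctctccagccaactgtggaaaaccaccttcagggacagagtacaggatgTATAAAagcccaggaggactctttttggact
The Prap1 window held 1 AGGTCA arm, 63 bases before the start, and the Klk1 window held 2, starting 187 and 109 bases before it. The Kap window held a TATA box 31 bases before the start. The letters of neither motif were found in the Lcn2 window. In promoters of 300 bases (250 before and 50 after the start), 1 for each of 27025 genes, the AGGTCA arm was found in 16.0% and the TATA box in 14.2%, so a match in 1 promoter is common. The full estrogen response element was found in 18 of the 27025. RefSeq promoters were matched for 353 of the 500 genes, under 80%, so a comparison of motif shares between the 500 and the other genes would be void and is not given.

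The other genes of the 30 with the highest variance are grouped below by what each is known to do, a grouping made after they were chosen. Complement C3 had 216, 31.5, 6.22, 889 and 347 FPKM, so that WT4 was highest and WT3 lowest. Lactoferrin, Ltf, an iron-binding secretory protein, had 287, 167, 8.43, 401 and 38.4 FPKM. Clca1, a secreted protein linked to mucus, had 58.1, 36.2, 2.82, 299.6 and 16.7 FPKM, again with WT4 highest and WT3 lowest. The gap junction protein connexin 26, Gjb2, had 45.6, 31.7, 1.06, 82.3 and 3.71 FPKM. Protease inhibitors did not share a pattern, since Spink12 was near 0 in WT3 and WT5 with 13.8, 18.3, 0.0616, 27.8 and 0 FPKM, whereas Spink1 was high in those same mice with 0, 0.125, 36.4, 0.115 and 14.7 FPKM. The proteases Mmp7 (matrilysin) and Napsa (napsin A) were highest in WT5, with 1.5995, 4.04, 0.464, 27.4 and 92.3 FPKM and 4.25, 4.87, 3.24, 28.9 and 197 FPKM.

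Enzymes were the next group. Padi1, which converts arginine to citrulline in proteins, had 179, 9.69, 2.21, 274 and 13.2 FPKM. Tissue-nonspecific alkaline phosphatase, Alpl, had 53.03, 5.36, 1.28, 106 and 5.29 FPKM. Both were highest in WT4 and lowest in WT3. Akr1c18, which inactivates progesterone by reducing it at carbon 20, was highest in WT5 with 0.337, 0.4797, 1.13, 19.5 and 75.6 FPKM. The glutathione S-transferase Gstm7 was highest in WT2 and lowest in WT4, with 12.04, 263, 61.2, 3.63 and 31.5 FPKM. Gstm7, Klk1, the Sprr2 genes and the keratins below belong to gene families of similar sequence, and how the authors' counting shared reads between members is not stated, so their values are uncertain to that extent.

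Ligands, receptors and signaling proteins completed the list. Oxtr, the oxytocin receptor through which the myometrium contracts, had 34.6, 2.76, 0.505, 92.4 and 9.796 FPKM. Inhbb, the activin and inhibin beta B subunit, had 209, 12.7, 1.21, 239 and 59.97 FPKM, and Nppc, the precursor of C-type natriuretic peptide, had 42.2, 0.455, 0.298, 20.7 and 1.69 FPKM. In all 3, WT1 and WT4 were the 2 highest mice and WT3 was the lowest. Areg (amphiregulin), a ligand of the EGF receptor, was high in WT3 only, with 0.201, 0.0866, 36.8, 0.518 and 0 FPKM, and WT3 was at least 306-fold above WT5, where no count was seen and a floor of 3 counts was used. Ndp (norrin), a ligand of Wnt receptors, was high in WT2, WT3 and WT5, with 0.441, 20.2, 34.4, 0.275 and 8.33 FPKM. The phosphatase gene Ptpn5 had 27.6, 1.94, 0.1498, 44.6 and 2.17 FPKM. The hair keratin Krt84 and Gm49425, which lie in the same keratin cluster, had 6.46, 0.0399, 0.0939, 79.8 and 16.3 FPKM, and 107, 4.17, 0.441, 30.8 and 8.13 FPKM. Of the remaining genes, BC048679 was lowest in WT5 with 147, 155, 8.82, 38.1 and 2.06 FPKM, and Pinlyp was high in WT5 only with 0.338, 0.4995, 0, 1.72 and 43.3 FPKM. Gm12248 and Unc5cl were high in WT1 and WT4, at 7.85 and 41.6 FPKM for Gm12248 and 37.1 and 80.2 FPKM for Unc5cl, and at most 0.468 and 4.03 FPKM in the other mice.

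**Figure D2:**
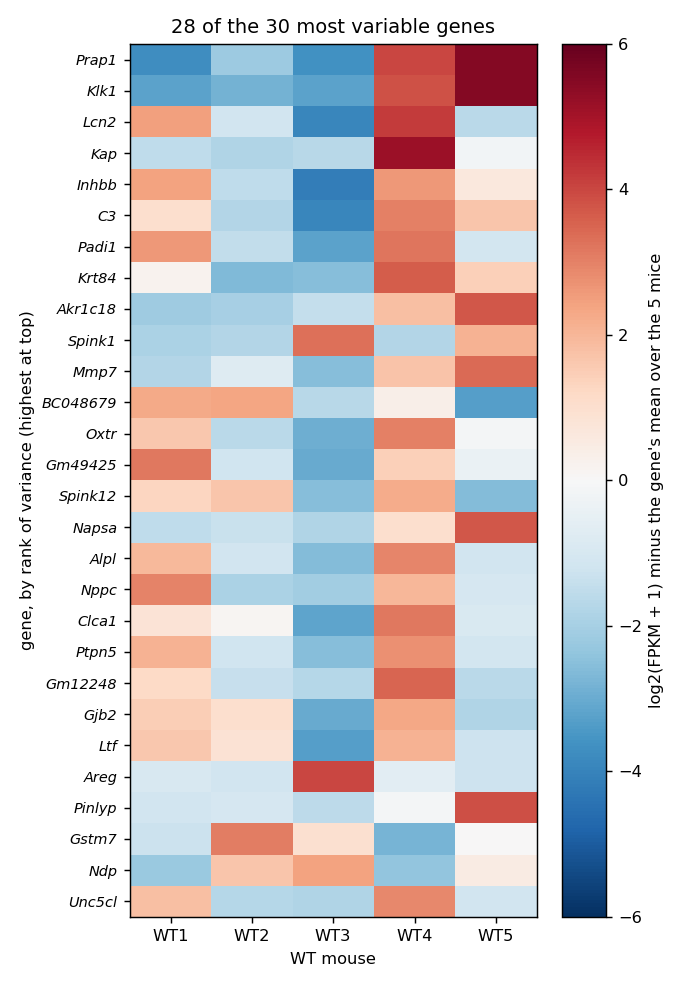
Rows are 28 of the 30 genes with the highest variance, columns are the 5 WT mice, and color is log2(FPKM + 1) minus the mean of the gene over the mice. WT3 is blue and WT4 is red in most rows, whereas Spink1, Areg and Ndp are red in WT3, and Prap1 and Klk1 are red in WT4 and WT5 only.

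Each gene was then sorted by which mice were high. The 5 log2 values were ordered and the widest gap between neighbors split the mice into a high and a low set. Among the 500 genes the most frequent high set was WT4 alone, with 90 genes (18%, beside 10.7% over all baseline genes). WT1 with WT4 was next, with 69 genes (13.8%, beside 5.41%), and WT3 alone had 48 genes (9.6%, beside 6.16%). All mice but WT4 were high for 42 genes (8.4%, beside 9.40%), and all mice but WT3 for another 42 (8.4%, beside 5.11%). WT1, WT4 and WT5 were high together for 37 genes (7.4%, beside 2.63%). By extremes, WT4 was the highest mouse for 228 of the 500 genes (45.6%, beside 27.1% of the baseline) and WT3 the lowest for 230 (46%, beside 21.8%), and both held at once for 169 genes (33.8%, beside 10.5% of the baseline). The opposite, WT3 highest and WT4 lowest, held for 70 genes (14%, beside 9.65%).

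**Figure D3:**
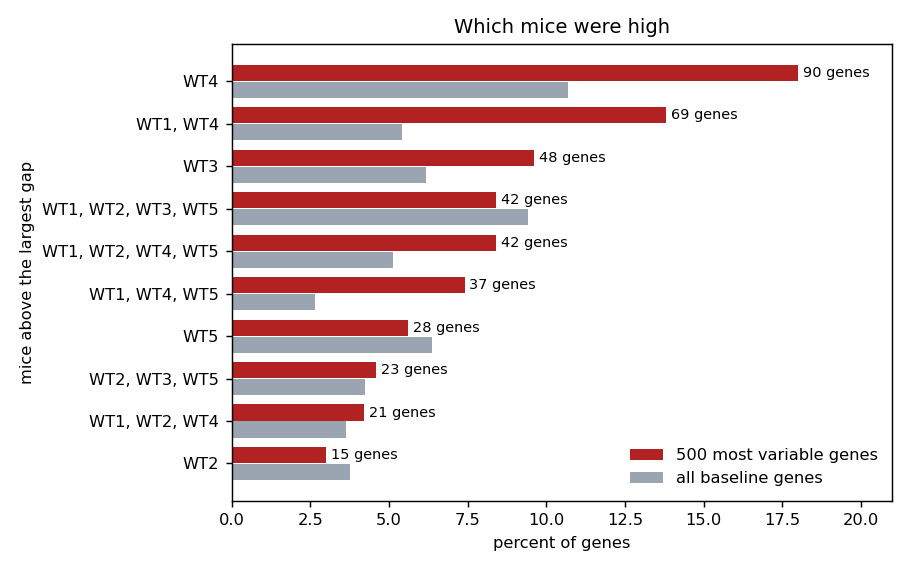
Bars give the percent of genes whose widest gap left the named mice on the high side, for the 500 most variable genes (red, with the number of genes) and for all 12317 baseline genes (gray). WT4 alone (90 genes) and WT1 with WT4 (69 genes) lead the 500.

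Genes of high variance in the 5 most frequent sets are given next. Genes high in WT4 alone included Kap and Clca1, Sprr2a3, a small proline-rich protein of epithelial barriers, and Pla2g2e, a secreted phospholipase A2. Sprr2a3 had 3.104, 0.529, 0.129, 41.4 and 0.576 FPKM. Genes high in WT1 and WT4 were led by Lcn2, Padi1, Oxtr, Alpl and Nppc. Genes high in WT3 alone were led by Areg, Rims3, the glucose transporter Slc2a3, the secreted phospholipase Pla2g10 and the acyl-CoA thioesterase Acot7. Slc2a3 had 2.85, 5.24, 76.7, 1.04 and 8.67 FPKM, and Acot7 had 10.6, 17.3, 194, 8.73 and 7.91 FPKM. Pla2g10, with 0.108, 0.20999, 22.1, 0.193 and 0.0325 FPKM, overlaps an antisense RNA, and whether the counting used strand is not stated. Genes low in WT4 alone were led by Gli1, a transcription factor of the hedgehog pathway, Angptl7, Stra6, the receptor of retinol-binding protein, Tmem132c and the sulfotransferase Sult1d1. Angptl7, a secreted angiopoietin-like protein, had 62.8, 69.8, 489, 12.5 and 145 FPKM, and Stra6 had 8.39, 28.7, 15.3, 0.282 and 9.71 FPKM. Genes low in WT3 alone included Inhbb, Gm49425, Sfn, the epithelial 14-3-3 sigma, and the keratin Krt7, with 24.5, 8.32, 0.692, 76.5 and 6.63 FPKM for Sfn, and 45.5, 12.4, 2.89, 115 and 21.8 FPKM for Krt7.

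Receptors of the ovarian hormones are given first. Esr1, the main estrogen receptor of the uterus, had 35.5, 33.9, 25.7, 43.97 and 35.3 FPKM, and its SD of 0.27 was close to the median of all baseline genes. The progesterone receptor Pgr had 57.1, 67.98, 21.5, 55.3 and 39.2 FPKM, with WT3 lowest and an SD of 0.64. Esr2, the second estrogen receptor, was below the baseline at a mean of 0.0971 FPKM, from between 0 and 17 counts per mouse. Hsd17b1, the enzyme that makes estradiol from estrone, was also below it, with 0.456, 1.42, 1.16, 0.723 and 0.839 FPKM. Of 12 hormone receptor and coregulator genes in the baseline, 1 (Oxtr) was among the 500, and the median SD of the 12 was 0.36. Rxfp1, the relaxin receptor, had the highest mean of them, with 106 ± 32.3 FPKM. The membrane estrogen receptor Gper1 had 1.14, 2.905, 2.86, 1.36 and 0.404 FPKM.

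**Figure D4:**
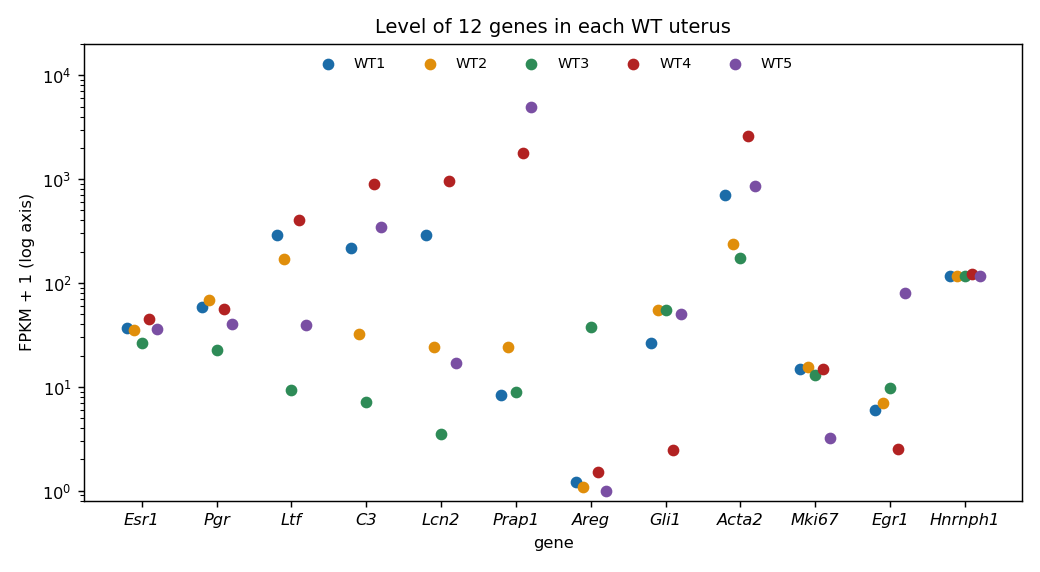
Points are the FPKM + 1 of 12 genes in each of the 5 WT uteri, on a log axis, with 1 color per mouse. Esr1, Pgr and Hnrnph1 stay close together, whereas Lcn2 and Prap1 spread over more than 100-fold, WT3 is lowest for Ltf, C3 and Lcn2 and alone high for Areg, and WT5 is alone low for Mki67.

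Genes known to be induced by estrogen in the uterus had a median SD among the highest of the 32 lists examined, which share some members. Its rank depended on the processing: it was first as reported, whereas the neutrophil, gland, smooth muscle or eosinophil list was first under some alternatives. The eosinophil list had only 1 baseline gene and the neutrophil list 3. Of 38 listed genes in the baseline, 29 were among the 500 (76.3%, beside 4.06% of the baseline), and the median SD was 1.59, beside 0.25. The lists were chosen with earlier results of these data known, so these shares describe the lists and are no test. The mean deviation of the list from each gene's own mean over the 5 mice was 0.70, -0.18, -1.35, 1.06 and -0.23 log2 units in WT1 to WT5. WT3 was the lowest mouse for 26 of the 38 genes, beside 21.8% of all baseline genes, and WT4 the highest for 20, beside 27.1%. Sprr2f, a small proline-rich protein of the luminal epithelium, was the most abundant, with 773, 373, 166, 3104 and 149 FPKM. Not every member moved with the list: the receptor Il17rb, chosen after its values were seen, was highest in WT3, with 15.4, 29.6, 102, 4.36 and 6.40 FPKM in WT1 to WT5. WT2 was below the mean of this list under the deposited scaling and at 0.01 when the FPKM were rescaled to the same sum in each mouse (TPM).

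Genes induced by progesterone were also variable, with no single order of the mice. Of 35 in the baseline, 17 were among the 500 and the median SD was 1.02. The mean deviations were -0.42, -0.17, 0.56, -0.45 and 0.48 log2 units in WT1 to WT5, so WT3 and WT5 lay above the mean and the other mice below. WT3 was the highest mouse for 19 of the 35, beside 20.7% of all baseline genes. Prap1, Inhbb and Spink1 had the highest variance, and each was high in different mice, as given above. Gpx3, a secreted glutathione peroxidase, was highest in WT5, with 114, 51.6, 108, 222 and 741 FPKM. Hsd11b2, the enzyme that inactivates glucocorticoid, was abundant and less variable, with 706, 448, 307, 236 and 455 FPKM. The hedgehog genes, chosen after their values were seen, were low together in WT4 and, less so, in WT1: Ihh, the epithelial ligand, which is in both hormone lists, had 0.841, 20.6, 18.6, 0.0794 and 3.48 FPKM in WT1 to WT5, and Ptch1, the stromal receptor, had 4.22, 16.4, 16.1, 1.81 and 11.3 FPKM. Gli1 downstream of them had 25.4, 54.5, 53.9, 1.4831 and 49.1 FPKM. WT4 was lowest for all 3.

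Genes of the uterine glands were high in WT3. Of 13 in the baseline, 10 were among the 500, the median SD was 1.39 and the mean deviations were -0.49, -0.12, 1.26, -0.84 and 0.19 log2 units. WT3 was the highest mouse for 8 of the 13, beside 20.7% of all baseline genes, and WT4 the lowest for 6, beside 26.1%. The chemokine Cxcl15 had 1.78, 18.8, 32.3, 0.159 and 9.76 FPKM, and Sult1d1 had 20.3, 53.5, 87.4, 3.96 and 54.5 FPKM. Fxyd4, a regulator of the sodium pump, was high in WT3, with 12.7, 24.99, 120.4, 22.5 and 8.93 FPKM. The gland protease Prss29 was instead high in WT5, with 0.104, 0, 1.58, 0.7399 and 23.96 FPKM. Wfdc15b varied less, with 12.2, 29.6, 19.5, 16.9 and 18.6 FPKM. The list shares Spink1 and Cxcl15 with the progesterone-induced list.

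Smooth muscle genes had the widest range of list means between mice among lists of at least 4 genes. Of 20 markers, all in the baseline, 14 were among the 500 (70%), the median SD was 1.18 and the mean deviations were 0.09, -0.97, -1.26, 1.69 and 0.44 log2 units in WT1 to WT5. WT4 was the highest mouse for all 20, beside 27.1% of all baseline genes, and WT3 the lowest for 16, beside 21.8%. Actg2, the enteric smooth muscle actin, had 285, 56.8, 56.6, 1339.7 and 384 FPKM, and the smooth muscle myosin heavy chain Myh11 had 183, 49.6, 29.8, 636 and 189 FPKM. Calponin, Cnn1, had 117, 40.3, 22.9, 430.3 and 199 FPKM, and Acta2 had 708, 236, 173, 2586 and 852 FPKM. The regulatory light chain Myl9 had 455, 224, 151, 1412 and 583 FPKM. In summed counts the list took between 3287 CPM in WT3 and 25858 CPM in WT4. Without WT4 the 500 most variable genes held 9 of the 20, and the median SD was 0.90. The count was also 9 with a pseudocount of 0.1, and 8 with TPM or log2 CPM.

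Stromal markers ran the other way in WT4. Of 20, all in the baseline, 6 were among the 500 and the mean deviations were 0.06, 0.35, 0.17, -0.84 and 0.27 log2 units. WT4 was the lowest mouse for 12, beside 26.1% of all baseline genes. Their summed counts were 4775 CPM in WT4 and between 6173 and 7525 CPM in the other mice. Pkdcc, a secreted kinase, had 26.1, 97.8, 104, 8.14 and 51.5 FPKM, and the homeobox gene Hoxa10 had 66.8, 161, 182, 43.3 and 210.2 FPKM. Not all stromal genes followed, since the retinaldehyde dehydrogenase Aldh1a2 was highest in WT4, with 213, 107, 69.1, 265 and 86.2 FPKM, and decorin, Dcn, had 292, 115, 141, 319 and 344 FPKM. Ngfr, the low-affinity nerve growth factor receptor, was lowest in WT3, with 180.3, 62.5, 20.1, 100.3 and 107 FPKM. Pdgfra had 31.6, 32.2, 66.8, 25.3 and 58.6 FPKM. Leaving out WT1 or WT4 left 4 of the 20 among the 500. WT4, the mouse with the highest smooth muscle sum, was thus the lowest for most stromal markers, and the part of tissue composition in either list was not tested.

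Epithelial markers were high in WT1 and WT4 and low in WT3 and WT5. Of 22 in the baseline, 5 were among the 500 (between 3 and 9 under other settings), the median SD was 0.78 and the mean deviations were 0.55, -0.10, -0.70, 0.81 and -0.55 log2 units. WT4 was the highest mouse for 15, beside 27.1% of all baseline genes. Summed counts were between 1889 CPM in WT3 and 5967 CPM in WT4. Epcam had 152, 124, 63.4, 239.9 and 63.1 FPKM, a narrower range than the estrogen-induced genes. The simple keratins Krt19, Krt8 and Krt18 had 201, 135, 45.1, 471 and 81.04 FPKM, then 222, 189, 81.99, 400.3 and 94.5 FPKM, then 166, 113, 122, 169 and 124 FPKM. Elf3, an epithelial transcription factor, had 135, 32.3, 15.2, 282 and 25.1 FPKM. Both this list and the estrogen-induced list, which share Elf3, were highest in WT4, and how much of the hormone-responsive pattern follows the amount of epithelium was not tested.

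**Figure D5:**
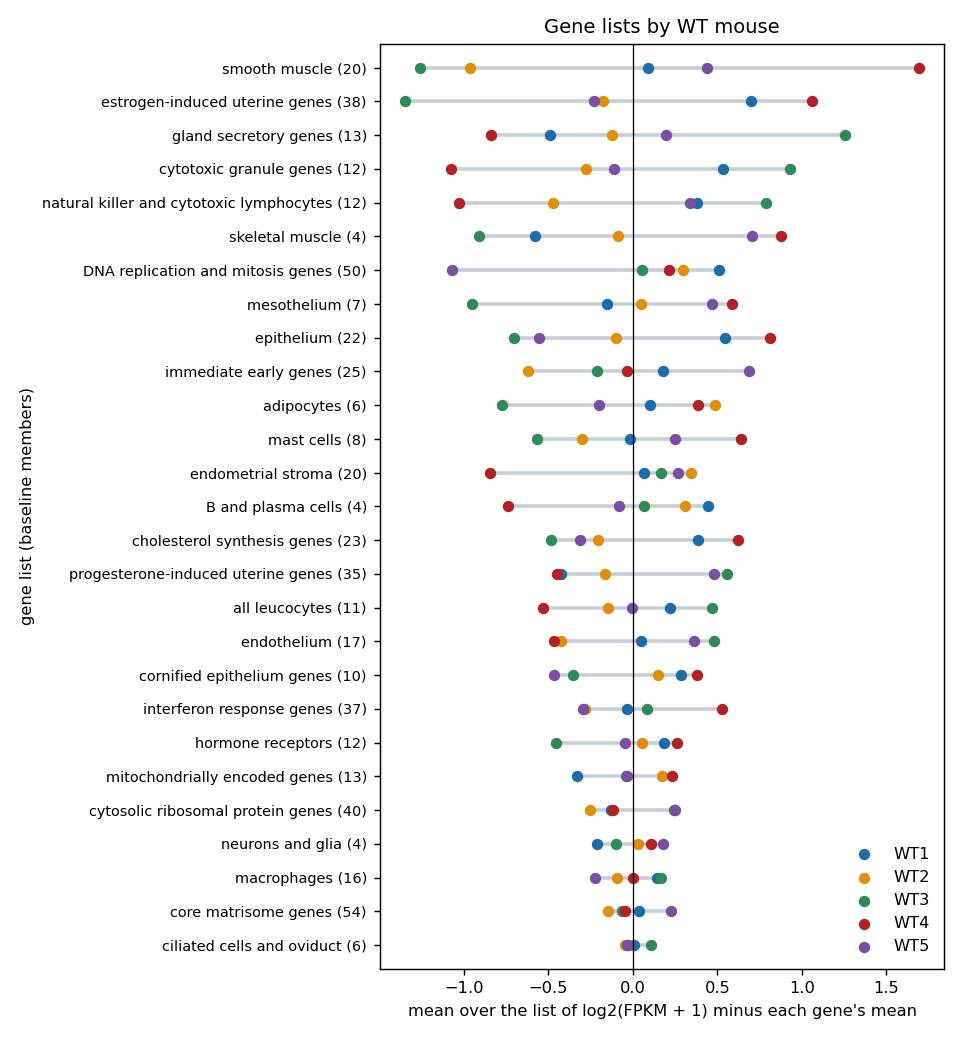
Each row is a list with at least 4 baseline genes, with the number of those genes in brackets; points are the mean over the list of log2(FPKM + 1) minus each gene's own mean over the mice, 1 color per mouse, and gray lines span the range. Smooth muscle, from -1.26 in WT3 to 1.69 in WT4, has the widest range, and estrogen-induced and gland genes follow.

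Cell division genes were low in WT5. All 50 listed genes of DNA replication and mitosis were in the baseline. WT5 was the lowest mouse for all 50, beside 22.1% of all baseline genes, and WT1 the highest for 39, beside 17.3%. The mean deviations were 0.51, 0.30, 0.05, 0.21 and -1.07 log2 units. The proliferation marker Mki67 had 13.7, 14.5, 11.95, 13.8 and 2.18 FPKM. Topoisomerase Top2a, the only member among the 500, had 20.5, 16.5, 16.1, 15.2 and 2.35 FPKM. Cdc20 and Ube2c, which act in the destruction of cyclins at mitosis, had 22.01, 20.1, 16.8, 21.2 and 4.99 FPKM, and 20.2, 16.8, 14.3, 21.5 and 3.31 FPKM. The replication clamp Pcna was less uneven, with 60.3, 56.2, 44.6, 47.9 and 35.2 FPKM. The median SD of the list was 0.68 with all mice and 0.24 without WT5, close to the baseline median, so most of this spread rested on WT5. The number of the 50 among the 500 most variable genes was 0 without WT5, 9 without WT3 and 11 without WT4.

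Immediate early genes, which are switched on within minutes of a stimulus or of tissue handling, were high in WT5. Of 25 in the baseline, 7 were among the 500 and the mean deviations were 0.18, -0.62, -0.21, -0.04 and 0.69 log2 units, with WT5 the highest for 12, beside 19.5% of all baseline genes. Egr1 had 4.98, 5.96, 8.82, 1.52 and 78.7 FPKM, and the nuclear receptor Nr4a1 had 5.36, 4.95, 2.46, 2.705 and 51.8 FPKM. Ier3 was high in WT1 and WT4 as well, with 87.4, 7.31, 20.3, 112 and 134 FPKM. Jund varied less, with 104, 53.1, 60.7, 59.9 and 69.3 FPKM. Without WT5, 4 of these genes were among the 500.

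General leucocyte and lymphocyte genes were mostly lowest in WT4. This held for 9 of the 11 general leucocyte markers in the baseline, 10 of 12 cytotoxic granule genes, 11 of 12 natural killer genes, 2 of 2 T cell genes and 3 of 4 B and plasma cell genes, beside 26.1% of all baseline genes. It did not hold for most genes of the other immune lists, with 7 of 16 macrophage, 2 of 8 mast cell and 0 of 3 neutrophil genes lowest in WT4. None of the 11 general markers was among the 500, and their median SD was 0.48. Ptprc had 2.03, 1.5004, 2.63, 0.899 and 2.81 FPKM. Cytotoxic granule genes were highest in WT3 and lowest in WT4: 4 of 12 were among the 500, with deviations of 0.53, -0.28, 0.93, -1.08 and -0.11 log2 units. Granzymes B and A, Gzmb and Gzma, the proteases that killer lymphocytes release, had 21.9, 6.27, 50.3, 3.203 and 17.3 FPKM, and 9.91, 1.78, 18.6, 1.01 and 3.01 FPKM. The lymphocyte chemokine Xcl1 had 18.3, 7.35, 18.1, 2.13 and 8.495 FPKM. The mast cell proteases Tpsb2 and Mcpt4 were instead highest in WT4, with 6.51, 1.61, 0, 15.7 and 7.32 FPKM, and 4.37, 1.24, 0.783, 15.6 and 6.13 FPKM. Hdc, which makes histamine and is active in mast cells and in the uterine epithelium, was highest in WT3, with 7.57, 17.9, 40.5, 1.39 and 13.1 FPKM. Of the macrophage genes 1 of 16 was among the 500 (0 without WT4), with a median SD of 0.39, and the complement component C1qa had 74.6, 62.3, 89.6, 59.7 and 53.4 FPKM.

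Neutrophil markers were low. Only 3 of the 14 listed genes found in the table were in the baseline, and the most abundant was Ltf, which the uterine epithelium also makes. The granule genes S100a8 and S100a9, which mark neutrophils, had mean FPKM of 0.320 and 0.269. Ngp and Retnlg had 0 counts in all mice. Ly6g, another neutrophil marker, had 1.99, 0.447, 0, 3.91 and 0 FPKM. Of the eosinophil list, Alox15 alone was in the baseline, with 56.998, 51.4, 81.5, 17.6 and 6.09 FPKM. The other listed eosinophil genes found in the table had means from 0.0151 FPKM for Epx to 0.253 FPKM for Il5ra. Prg2 and Siglecf had 0.0233 and 0.0309 FPKM, so Alox15 does not stand for the list, and its cell source was not tested. Jchain, the joining chain of plasma cell antibodies, had 10.2, 26.9, 15.9, 1.33 and 12.5 FPKM. The natural killer list, which shares granzymes with the granule list, had 3 of 12 among the 500, and the T cell list and the list for neurons and glia had none of 2 and none of 4. Endothelial markers had none of 17 among the 500, with WT4 and WT2 below the mean, and Pecam1 had 17.5, 10.7, 25.1, 12.2 and 28.8 FPKM.

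Tissue that may be attached to a dissected uterus varied as well. The mesothelial markers Msln and Upk3b had 3.16, 3.31, 0.235, 9.99 and 6.91 FPKM, and 2.97, 2.77, 0.0527, 8.01 and 6.21 FPKM, with WT3 lowest for both. The adipocyte gene Cfd was high in WT2 only, with 0.0441, 12.5, 0.0673, 1.21 and 0 FPKM, and Fabp4 had 0.562, 3.799, 0.166, 2.23 and 0.446 FPKM. The 6 adipocyte genes in the baseline did not share this order, since WT2 was highest for 2 and lowest for 2. Pck1 had 8.09, 1.24, 2.098, 2.203 and 4.34 FPKM, and Lpl had 9.801, 7.01, 1.57, 10.1 and 3.31 FPKM. Among listed genes below the baseline, the fat cell hormone gene Adipoq had 0, 81, 0, 38 and 0 counts, and Cidec, Plin1, Retn and Lep were also highest in WT2, whereas Cidea and Pparg were highest in WT4. Globin transcripts of red blood cells were highest in WT5, with 12.9, 18.4, 18.2, 47.1 and 62.4 FPKM for Hbb-bs. Acta1, the skeletal muscle actin that smooth muscle can also express, had 9.29, 25.1, 9.002, 59.6 and 42.4 FPKM. Ovary and oviduct lists held none of the 500, and their summed counts ranged between 89.9 and 194.9 CPM and between 170.2 and 243.3 CPM. Most of the ovary sum came from Foxl2 in each mouse. Most of the oviduct sum came from Pax2 and from Wt1, which is also in the mesothelium list. These sums thus rest on few genes and are no measure of attached ovary or oviduct. Foxl2, which the uterine stroma also expresses, had the highest mean of the 3 ovary genes in the baseline, with 50.2, 34.5, 21.3, 16.3 and 33.7 FPKM.

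All 32 lists had a median SD above the 0.25 of the baseline genes, including those of general function. The lists were chosen with earlier results of these data known, so this is a description of them only. Core matrisome genes had 8 of 54 among the 500 and a narrow range of list means, from -0.15 in WT2 (above the mean with TPM) to 0.22 in WT5. Their count among the 500 was 5 without WT1 and 1 with a pseudocount of 0.1, TPM or log2 CPM. The collagen Col6a3 had 193, 56.4, 28.7, 179 and 61.2 FPKM, and asporin, Aspn, had 17.1, 8.25, 2.84, 55.9 and 13.5 FPKM. Interferon response genes had 4 of 37 among the 500 and were highest in WT4 for 23 of them (beside 27.1% of all baseline genes), with 2 among the 500 without WT4. Oas2, an antiviral sensor, had 3.77, 4.802, 1.602, 20.1 and 1.49 FPKM. Cholesterol synthesis genes had 1 of 23 among the 500 (3 without WT2) and were highest in WT4 for 16 and lowest in WT3 for 15, beside the same 27.1% and 21.8% of the baseline. Cornified epithelium genes had 3 of 10 among the 500, and the junction protein desmoplakin, Dsp, had 20.6, 14.9, 8.3004, 30.6 and 4.44 FPKM. Cytosolic ribosomal protein genes had 1 of 40 among the 500 (0 without WT1) and a median SD of 0.27. That gene, Rpl30, had 7.47, 30.8, 7.17, 40.3 and 35.9 FPKM, and ribosomal protein genes have many processed copies in the genome. Of the 13 mitochondrially encoded genes, mt-Nd4l, which overlaps mt-Nd4, was the only one among the 500, with 10.8, 147, 16.1, 27.6 and 30.4 FPKM. Without WT2 none of the 13 was among them, and without WT4 3 were.

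Variable genes lay near each other more often than other genes lay near them. Another of the 500 started within 100 kb of 99 of them (19.8%), whereas 7.52% of the other baseline genes had one of the 500 that near. The groups named here were chosen after their values were seen. The chemokine genes Ccl7, Ccl11, Ccl12 and Ccl8 start between 82045712 and 82115185 on chromosome 11 (GRCm38). WT1 and WT4 were the 2 highest mice for the first 3, and Ccl11 (eotaxin) had 31.0, 5.45, 2.01, 46.1 and 7.90 FPKM in WT1 to WT5. Ccl8 of that group was highest in WT3, with 71.35 FPKM. Padi4, Padi1 and Padi2 on chromosome 4 shared their 2 highest mice, WT1 and WT4, and Padi2 had 121.2 and 144.9 FPKM there and at most 25.6 FPKM elsewhere. On chromosome 7, Klk1b21 and Klk1b24 were high in WT4 and WT5 as Klk1 was. The keratin group on chromosome 15 was not uniform, since Krt83 was high in WT1 alone, with 51.5 FPKM, beside 2.92 FPKM in WT4. Neighboring paralogs can share reads, and that share is unknown here.

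A set of abundant genes hardly differed between the mice. Among genes with a mean above 50 FPKM, Hnrnph1, a splicing factor, had the lowest variance, with 116, 115, 115, 120.3 and 116 FPKM and an SD of 0.03. Rnf187, a ubiquitin ligase, had 88.7, 86.1, 90.003, 88.2 and 86.4 FPKM, and Chtop, which acts in mRNA export, had 53.01, 50.7, 52.3, 49.4 and 51.8 FPKM. Txndc17, a thioredoxin-like protein, had 48.02, 49.2, 53.1, 50.9 and 50.4 FPKM. Col1a1, the alpha 1 chain of type I collagen, was the most abundant of the 10, with 685, 689.9, 671, 741 and 713 FPKM, although many genes of the stroma varied around it. Calu (calumenin) and Srsf6, another splicing factor, had means of 117 and 99.05 FPKM. Ganab, a glucosidase of the endoplasmic reticulum, and Sar1a, which acts in vesicle transport, had 65.1 and 68.3 FPKM. Psap (prosaposin) had 354 FPKM. The SD of these 10 genes was at most 0.07. With TPM the same genes had SDs up to 0.17, and that scaling moved the median gene over a range of 0.27 log2 units between mice, beside 0.03 with the deposited FPKM. With TMM or DESeq2 factors from the 5 WT mice, the SD of the 10 genes was again at most 0.07.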

How the data were processed

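RNA-seq of the uterus was made by the authors from 10 mice, 5 of them WT (150 bp paired-end reads, HISAT2 2.0.5 per the labels, Ensembl release 94). Which program counted the reads, and whether it used strand, is not given in the sources used here. The authors deposited raw counts and FPKM per gene for each mouse, and a normalized signal, which was checked to be the count divided by 1 factor per mouse. The deposited FPKM is that signal per kilobase times a constant, and its factors were set over all 10 mice. The authors' comparison columns (fold changes and p-values) and enrichment tables concern the transgenic group and were not used.

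Variance and SD were computed on log2(FPKM + 1) with Python 3.11.15 and pandas 2.3.3. Counting variance was taken as Poisson, and edgeR 4.0.16 (R 4.3.3) gave the biological coefficient of variation. Floors of 3 counts cover counting error only. Named genes were the 10 with the highest mean, the 30 with the highest variance, the 10 most stable above 50 FPKM, up to 6 per list (the 3 highest in variance and the 3 highest in mean), 5 per frequent high set, the genes at each limit, and 13 uterine genes. Some genes were named outside this rule, among them listed genes below the baseline and those said to be chosen after their values were seen. The genes, lists and this rule were chosen with earlier results of these data known. Alternatives were another pseudocount, TPM, TMM, DESeq2 1.42.0 size factors and variance stabilizing transformation, log2 CPM, other limits on FPKM, the median absolute deviation, and leaving out each mouse. Some genes named by the rule are not reported here. Promoters were taken from RefSeq (GRCm38.p6). Total counts were 23271988, 16314224, 14817228, 20848645 and 19210537 in WT1 to WT5.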

Additional observations from a re-analysis of the deposited data

Results flagged for a closer look

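Among 231 sets of 5 values (194 named genes, 32 lists and 5 measures of the libraries), 20 had 1 mouse far from the other 4 by Dixon's criterion (a gap above 0.71 of the whole range). Chance alone flags about 1 set in 20, and many of these genes were chosen for their high variance, so the number of flags is no result.

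WT3 stood far above the other mice for Areg (36.8 FPKM), Rims3 (26.7 FPKM), Pla2g10 (22.1 FPKM) and Acot7 (194.3 FPKM). WT4 stood far above them for Kap, with 152 FPKM, and above them by a small amount for Hnrnph1, with 120.3 FPKM, a gene that otherwise hardly differed. WT5 stood above them for Pinlyp (43.3 FPKM) and Nr4a1 (51.8 FPKM).

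WT5 was the low mouse for the cell division genes Top2a (2.35 FPKM), Ube2c (3.31 FPKM), Mki67 (2.18 FPKM), Ccnb2 (4.18 FPKM), Cdc20 (4.99 FPKM) and Kif14 (0.170 FPKM), and its mean deviation for the list of 50 DNA replication and mitosis genes was -1.07 log2 units. WT4 was the low mouse for Gli1 (1.4831 FPKM) and Psap (324.2 FPKM), and for the stroma list, with a mean deviation of -0.84 log2 units. WT2 was the low mouse for Plvap, an endothelial protein, with 12.5 FPKM. WT1 was the low mouse for Rps29, a ribosomal protein, with 743 FPKM.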

How the results depend on the processing

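The 12317 baseline genes became 7917 with a mean FPKM over 5 and between 12267 and 12307 without 1 mouse. Genes with an SD over 1 numbered 525, between 373 and 634 without 1 mouse, 1003 with a pseudocount of 0.1, 969 with TPM and 1072 with log2 CPM. Of the 500 most variable genes, 297 were shared with the ranking by median absolute deviation and between 364 and 457 with the rankings without 1 mouse. The distance between WT3 and WT4 was 1.19 with a pseudocount of 0.1, 1.07 with TPM and 1.24 with log2 CPM, and this pair was the farthest under all alternatives that kept both mice. With a pseudocount of 0.1, TPM and log2 CPM, smooth muscle genes among the 500 were 9, 8 and 8 in place of 14. Epithelial genes were 3, 4 and 3 in place of 5 (8 with a mean FPKM over 5 and 9 with the median absolute deviation). Under the same 3 settings stroma genes among the 500 were 3, 3 and 2 in place of 6, immediate early genes 4, 3 and 4 in place of 7, and core matrisome genes 1 in place of 8. With a mean FPKM over 5, core matrisome genes were 12 and DNA replication genes 6. With TPM, WT2 moved to the other side of the mean for 6 of the 32 lists (estrogen-induced, matrisome, epithelium, macrophages, oviduct and skeletal muscle), as did WT1 for the interferon and mast cell lists and WT4 for macrophages. The cause of these shifts was not tested. The named genes whose SD moved were low genes with other pseudocounts and 7 of the stable genes with TPM. No paired analysis was possible because 1 group was described, with no contrast. Depth limits genes near 3 counts per mouse.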

Other observations

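Genes outside the protein-coding class were not part of the baseline and are given here as values, chosen after they were seen. The host RNA Carmn and the precursors of Mir143 and Mir145a, which are known from smooth muscle, were highest in WT4: Carmn had 5.45, 0.594, 0.269, 13.3 and 1.99 FPKM in WT1 to WT5, and Mir145a had 91.8, 12.8, 11.5, 294 and 40.5 FPKM. Mir143 rested on between 0 and 102 counts per mouse, and the library was not made for small RNAs.

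The long noncoding RNA Gm48898 was abundant, with 46.9, 170.6, 168.6, 12.6 and 85.5 FPKM in WT1 to WT5. Another, AU015791, was high in WT3, with 0.223, 0.108, 19.1, 3.59 and 3.92 FPKM. Sprr2g, annotated as a polymorphic pseudogene, was highest in WT5, with 19.1, 17.9, 2.95, 44.7 and 117 FPKM, whereas its relative Sprr2f was highest in WT4.

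Antibody genes also differed. The kappa constant region gene Igkc had 98.6, 228.8, 170.05, 15.7 and 118.8 FPKM in WT1 to WT5, with WT4 lowest as for Jchain. The heavy chain variable gene Ighv9-4 had 114 counts in WT1 and 0 in the other mice.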
